A study of Mus musculus with 12 samples.

Results

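Tibialis anterior muscle that had been injected with phosphate-buffered saline (PBS), the vehicle of a matrix gel, was compared with uninjured tibialis anterior of other mice. The comparison used 8 of the 12 RNA-seq libraries of the study, chosen by the treatment in their labels: 4 from PBS-injected muscle and 4 from uninjured muscle. The labelled protocol gives 50 µl of PBS in the right leg, and the left leg of the same animals received 50 µl of gel at 6 mg per ml. The deposited names mark the uninjured muscles as left legs of animals with other numbers. The study's title names acute and chronic disuse injury as its setting, and the kind of injury in these animals, the time from injection to collection, and the strain, sex and age were not stated in the sources used here. PBS, the leg, the gel in the other leg, any injury and the set of animals all change together between the groups and cannot be told apart. Each library of a group carries its own animal number, read here as 4 animals per group.

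The tibialis anterior is a fast muscle at the front of the shin that lifts the foot. Skeletal muscle responds to circulating glucocorticoids, stress hormones secreted with a daily rhythm. Their receptor is a transcription factor that induces genes for transcriptional regulators, for metal-binding proteins and for the breakdown of muscle protein. Muscle also holds its own circadian clock, in which PER and CRY proteins repress the BMAL1 and CLOCK activators and the REV-ERB receptors repress Bmal1. Its fuel use shifts between glucose and fatty acids with feeding, fasting and activity.

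Library totals were 15970781 to 18787964 counts in uninjured muscle and 16714543 to 20488409 in PBS-injected muscle. Markers of tibialis anterior, 10 contractile and calcium-handling genes of fast muscle, took 23% to 24.7% of the counts in uninjured libraries and 21.6% to 23.7% in PBS libraries. On the first principal component, with 37.2% of the variance, uninjured values ran from 22.3 to 28.9 and PBS values from -32.1 to -24. A second component (16.6%) set PBS libraries 1 and 2 at 26.6 and 23.9 and PBS libraries 3 and 4 at -30.6 and -16.4.

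Of 12780 genes tested, 2339 (18.3%) passed an adjusted p of 0.05 in edgeR's quasi-likelihood test, 1192 of them higher (9.33% of the genes tested) and 1147 lower (8.97%) in PBS-injected muscle. The falls were larger than the rises: 259 genes fell and 151 rose 2-fold or more. No overlap between groups was seen for 2734 genes (21.4%), and 1974 of the 2339 calls were among these. With each library left out in turn the count ranged from 1600 (without uninjured library 3) to 2615 (without PBS library 4), and 1275 genes (9.98%) passed in all 8 of these fits. When the 4 gel libraries entered the fit and its estimate of spread, 833 genes passed, 826 of them among the 2339, and no gene changed direction.

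Metallothioneins and genes known as targets of glucocorticoids were among the largest falls. Of 34 tested genes on a list of glucocorticoid-induced genes, 23 fell and 1 rose, against 8.97% and 9.33% of all genes, and the median log2 fold change was -0.98 against 0.0088 over all genes. The member that rose was Nr3c1, which encodes the glucocorticoid receptor itself, at 0.36 ± 0.09 (SE, adjusted p = 0.0122). The estimate was below 0 for each of the other 33 members. In the fit of all 12 libraries 19 fell and 0 rose, and without single libraries between 19 and 25 fell.

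Zbtb16, which encodes the transcriptional repressor PLZF, fell in all 4 PBS libraries. Its normalised count was 124, 137, 162 and 159 CPM (counts scaled to library size) in uninjured libraries 1 to 4 and 32.0, 33.4, 30.9 and 37.5 CPM in PBS libraries 1 to 4, a log2 fold change of -2.12 ± 0.11 (adjusted p = 3.2e-10). All 4 PBS values were thus far below the lowest uninjured value. Fkbp5, a co-chaperone that restrains the receptor, was at 53.3, 84.4, 90.4 and 92.8 CPM in uninjured and 8.70, 9.67, 16.6 and 8.49 CPM in PBS libraries, a change of -2.89 ± 0.28 (adjusted p = 0.00039). The groups did not overlap, which the rule for the largest falls asked for, and uninjured library 1 and PBS library 3 lay closest to each other. Tsc22d3, which encodes the anti-inflammatory protein GILZ, went from 138, 209, 203 and 161 CPM to 72.5, 81.9, 95.3 and 83.7 CPM and fell by 1.09 ± 0.13 on the log2 scale (adjusted p = 3.03e-05).

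Map3k6, a stress-activated kinase gene, was at 36.8, 72.3, 72.1 and 65.8 CPM in uninjured libraries and at 8.51, 8.42, 6.21 and 6.44 CPM in PBS libraries, 8.32-fold higher in uninjured muscle (adjusted p = 1.87e-05). The transcription factor gene Cebpd was at 35.4, 78.2, 61.7 and 60.3 CPM and at 9.92, 8.21, 8.17 and 5.36 CPM, 7.40-fold higher in uninjured muscle (adjusted p = 0.000307). Ddit4 encodes REDD1, an inhibitor of mTOR. It was at 14.5, 38.7, 45.2 and 37.7 CPM in uninjured and at 4.07, 4.21, 5.34 and 4.22 CPM in PBS libraries (adjusted p = 0.0018). In each of these 3 genes uninjured library 1 was the lowest uninjured value and still lay above every PBS library. The rule that named the largest falls, these among them, asked for no overlap between groups.

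That library was the lowest uninjured library for 21 of the 23 genes of the list that fell. Its list level, the average log2 CPM of its members relative to the uninjured average, was -0.43, against 0.0375 to 0.23 in the other 3 uninjured libraries and -1.28 to -1.19 in the PBS libraries. Foxo1, a transcription factor gene of catabolic programmes, was at 36 CPM there, at 64.6 to 74.8 CPM in the other uninjured libraries and at 17.6 to 30.3 CPM in PBS libraries (adjusted p = 0.00696). Glul, encoding glutamine synthetase, showed the same order, with 276 CPM, 555 to 646 CPM and 142 to 232 CPM (adjusted p = 0.0158). The Glul call held in 7 of the 8 fits without 1 library. Sgk1, a serum- and glucocorticoid-regulated kinase gene, fell by less, from 167 to 208 CPM in uninjured libraries to 125 to 145 CPM in PBS libraries (-0.47 ± 0.09, adjusted p = 0.00156).

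Trim63 encodes MuRF1, a ubiquitin ligase of muscle protein breakdown. It was at 122, 191, 201 and 147 CPM in uninjured and 70.3, 62.0, 86.2 and 101 CPM in PBS libraries and fell by 1.05 ± 0.20 on the log2 scale (adjusted p = 0.00613). Fbxo32, the other classical ligase of atrophy, ranged from 120 to 218 CPM in uninjured and from 103 to 175 CPM in PBS muscle, and its difference of -0.34 ± 0.21 did not pass (adjusted p = 0.305). Pdk4, which inhibits pyruvate dehydrogenase, was at 236 to 604 CPM in uninjured and 77.8 to 255 CPM in PBS muscle (-1.74 ± 0.48, adjusted p = 0.0531). Klf9 and Dusp1, further classical targets, were at -0.20 ± 0.10 (adjusted p = 0.194) and -0.15 ± 0.23 (adjusted p = 0.724), so members of the list differed widely among themselves.

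**Figure D1:**
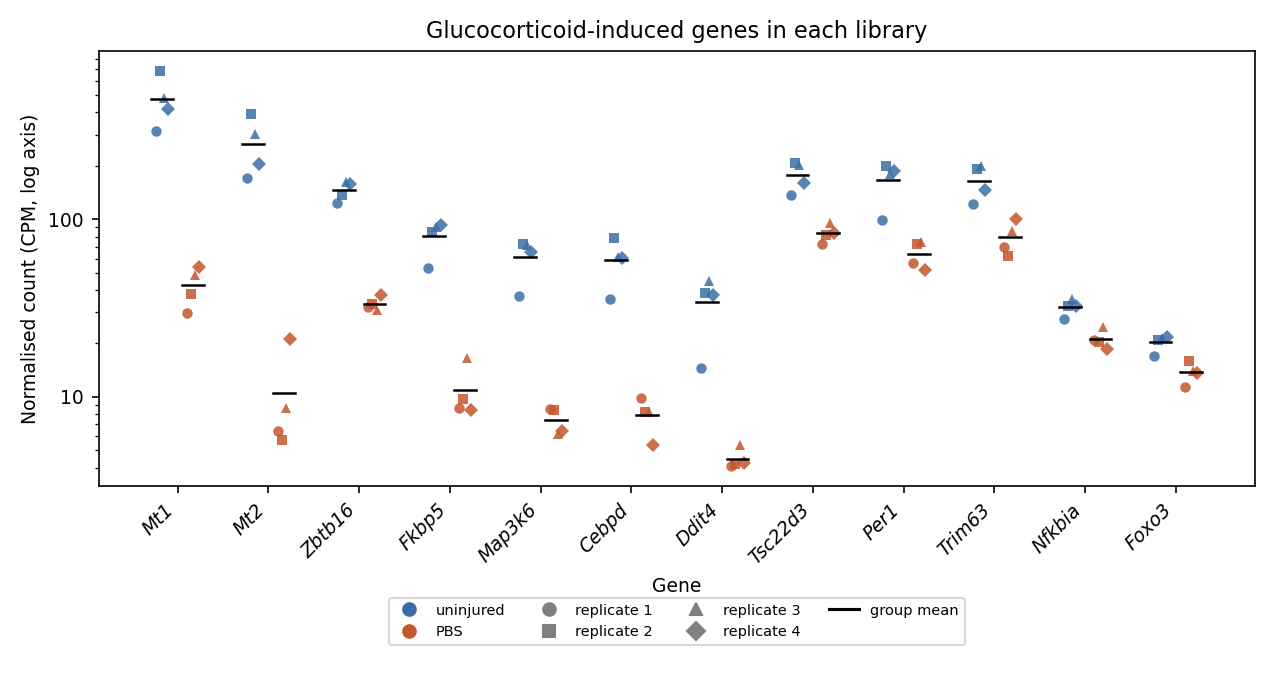
Normalised counts (CPM, log axis) of 12 glucocorticoid-induced genes in each library, with blue symbols for the 4 uninjured and orange symbols for the 4 PBS libraries, symbol shapes for the replicate number and a bar for the group mean. The 12 genes were picked from 34 tested, of which 20 had every PBS library below every uninjured library. Some were named by a rule that asked for no overlap, and Pdk4, Klf9 and Dusp1 are not shown. The groups do not overlap for any of the 12 genes shown, and uninjured library 1 (blue circle) is the lowest uninjured library for each of them.

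The metallothioneins bind zinc and copper and are induced by metals as well as by glucocorticoids. Mt1 was at 316, 689, 484 and 420 CPM in uninjured libraries and at 29.6, 37.9, 48.9 and 54.2 CPM in PBS libraries, 11.2-fold higher in uninjured muscle (-3.48 ± 0.32 on the log2 scale, adjusted p = 0.00054). Mt2 was at 172, 391, 301 and 204 CPM and at 6.41, 5.72, 8.71 and 21.1 CPM, 25.7-fold higher in uninjured muscle (-4.68 ± 0.55, adjusted p = 0.00236). The lowest uninjured value exceeded the highest PBS value for both genes, as the rule for the largest falls asked. The zinc importer gene Slc39a14 and the exporter gene Slc30a2 fell by less (-0.67 ± 0.18 and -0.84 ± 0.25, adjusted p = 0.0112 and 0.0393), and both lost their calls in the fit of all 12 libraries. The Slc30a2 call held in 3 of the 8 fits without 1 library and that of Slc39a14 in 7, and without uninjured library 3 the list had 2 members lower. The other 5 of 9 genes of metal handling tested, Mt3 among them, did not pass. In the gel-injected legs of the PBS-injected animals Mt1 was at 115 to 211 CPM and Fkbp5 at 6.96 to 11.1 CPM, values given without a test because both legs belong to the same animals.

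Promoter windows of these genes are shown because the genes fell together and because textbook elements of both regulators are known. The windows run from 250 bases before to 50 bases after the annotated start (RefSeq, build GRCm38.p6, matched by gene symbol), and 10165 of the genes tested had at least 1 window. The metal element core TGCNCNC, searched on both strands, occurred 3 times in the Mt1 window and 6 times in the Mt2 window. It is a short motif that 60.2% of all 13015 windows hold, and 61.4% of those of genes that fell. Capitals mark it in both sequences, including matches on the opposite strand.
Mt1, chr8:94178839-94179138, plus strand: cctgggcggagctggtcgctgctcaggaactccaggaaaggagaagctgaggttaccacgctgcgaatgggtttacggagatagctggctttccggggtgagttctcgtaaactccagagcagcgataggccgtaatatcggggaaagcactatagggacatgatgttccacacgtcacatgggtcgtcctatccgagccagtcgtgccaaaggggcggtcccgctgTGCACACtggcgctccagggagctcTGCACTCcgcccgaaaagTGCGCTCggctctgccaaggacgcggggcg
Mt2, chr8:94172368-94172667, plus strand: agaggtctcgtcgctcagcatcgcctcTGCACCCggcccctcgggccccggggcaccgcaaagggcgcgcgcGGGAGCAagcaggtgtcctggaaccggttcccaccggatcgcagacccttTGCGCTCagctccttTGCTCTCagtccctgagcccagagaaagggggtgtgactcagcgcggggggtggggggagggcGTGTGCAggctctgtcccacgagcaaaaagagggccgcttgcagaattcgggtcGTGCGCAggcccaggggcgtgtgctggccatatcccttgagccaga

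A palindromic glucocorticoid element was found in 0.361% of all windows, in 0.953% of those of genes that fell and in 0.717% of those of genes that rose. Of the 41 windows of 29 genes on the glucocorticoid list, 4 held it, in Map3k6, Mt1, Sgk1 and Trim63. The match began 181 bases before the start of Map3k6, 94 before Mt1, 188 before Sgk1 and 208 before Trim63. Capitals mark it below for the 3 genes whose window was not yet given, and the Mt1 window above holds it in lower case. A match is a description of letters and shows no binding.
Map3k6, chr4:133240568-133240867, plus strand: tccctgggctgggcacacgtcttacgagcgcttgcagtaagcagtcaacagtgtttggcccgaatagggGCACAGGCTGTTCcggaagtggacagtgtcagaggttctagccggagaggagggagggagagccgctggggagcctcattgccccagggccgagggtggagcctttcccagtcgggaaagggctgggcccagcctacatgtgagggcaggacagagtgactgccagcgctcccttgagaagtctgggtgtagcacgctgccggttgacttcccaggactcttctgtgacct
Sgk1, chr10:21993640-21993939, plus strand: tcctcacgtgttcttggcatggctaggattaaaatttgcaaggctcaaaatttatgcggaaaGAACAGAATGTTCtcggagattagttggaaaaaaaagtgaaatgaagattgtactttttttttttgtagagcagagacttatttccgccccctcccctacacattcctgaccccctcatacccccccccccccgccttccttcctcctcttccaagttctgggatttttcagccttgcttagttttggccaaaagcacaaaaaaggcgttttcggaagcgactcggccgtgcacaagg
Trim63, chr4:134314870-134315169, plus strand: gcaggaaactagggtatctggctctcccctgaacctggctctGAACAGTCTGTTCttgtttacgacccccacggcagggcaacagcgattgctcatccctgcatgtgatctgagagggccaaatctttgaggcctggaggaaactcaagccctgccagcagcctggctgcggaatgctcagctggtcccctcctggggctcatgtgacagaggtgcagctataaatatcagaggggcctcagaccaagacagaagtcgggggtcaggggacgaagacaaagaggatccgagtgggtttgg

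Single clock genes moved in both directions. Of 17 core clock genes tested, 3 rose (17.6%, against 9.33% of all genes) and 2 fell (11.8%, against 8.97%). These counts are too small to set the list apart from all genes. The 5 genes passed in every fit without 1 library and in the fit of all 12 libraries. The repressor genes Per1 and Per2 fell: Per1 was at 99.5, 199, 181 and 187 CPM in uninjured and 57.1, 72.9, 74.2 and 51.8 CPM in PBS libraries (-1.38 ± 0.23, adjusted p = 0.0056), and Per2 at 32.2, 37.7, 35.1 and 35.6 CPM and 15.9, 21.3, 15.5 and 26.3 CPM (-0.84 ± 0.15, adjusted p = 0.000848). Nr1d1, which encodes REV-ERB alpha, rose from 158, 142, 123 and 106 CPM to 295, 376, 275 and 207 CPM (1.12 ± 0.18, adjusted p = 0.00211). Bhlhe40 and Bhlhe41, encoding the DEC repressors, rose by 0.97 ± 0.11 and 0.67 ± 0.08 (adjusted p = 1.08e-05 and 2.34e-05).

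The activator gene Arntl, which encodes BMAL1, was at 6.07 to 8.17 CPM in uninjured and 5.36 to 11.3 CPM in PBS muscle, with overlapping groups (adjusted p = 0.626). Clock, Cry1, Per3 and Nr1d2 had estimates between -0.12 and 0.18 and none passed. Among output genes, Nfil3, a repressor that competes with the PAR-bZIP activators, fell from 12.6, 26.4, 30.2 and 22.9 CPM to 6.88, 8.83, 6.97 and 5.36 CPM (adjusted p = 0.00133). Dbp, one of those activators, was at 49.3 to 73.9 CPM and 70.1 to 116 CPM and passed narrowly (0.61 ± 0.18, adjusted p = 0.0417). The Dbp call was lost in the fit of all 12 libraries and in 5 of the 8 fits without 1 library. The E-box CACGTG occurred in 10.9% of the windows of genes that rose, 9.36% of those of genes that fell and 9.95% of all windows. The hour of collection is not given in the sources used here, and its part in these values was not tested.

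**Figure D2:**
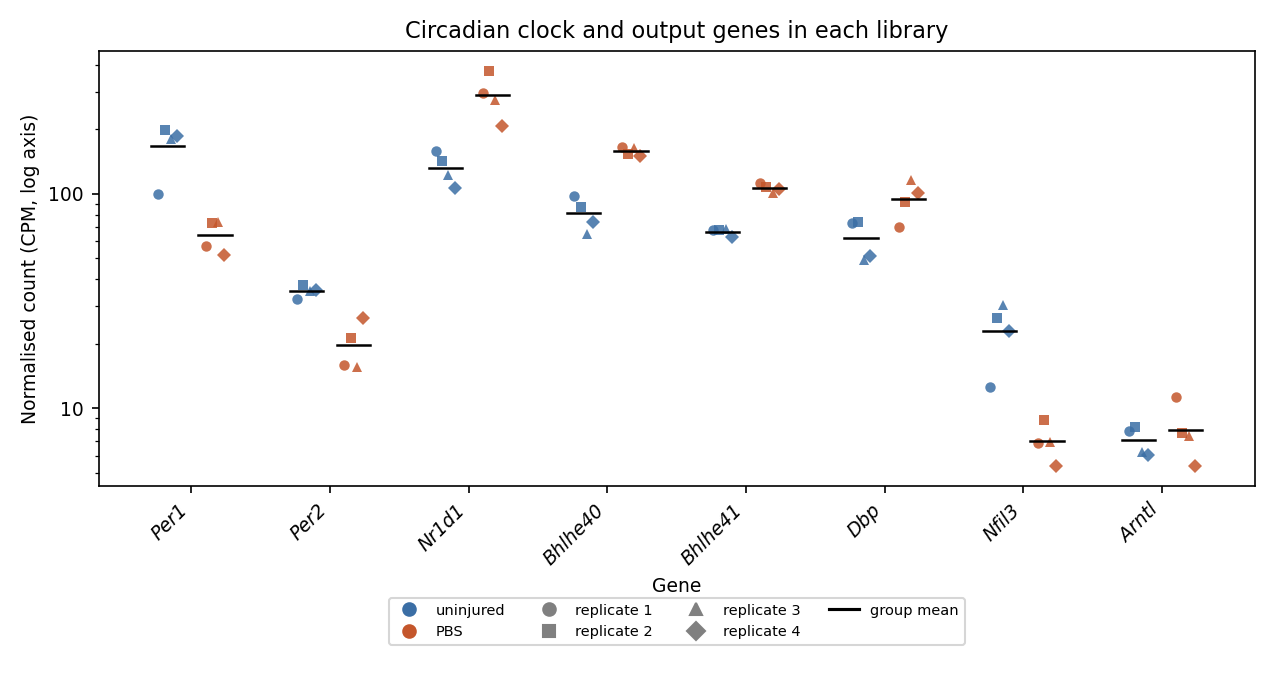
Normalised counts (CPM, log axis) of 8 clock and clock-output genes in each library, with blue symbols for uninjured and orange for PBS libraries, shapes for the replicate number and a bar for the group mean. Per1, Per2 and Nfil3 are lower and Nr1d1, Bhlhe40 and Bhlhe41 higher in every PBS library than in any uninjured library, while the groups overlap for Dbp and Arntl.

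Immediate-early genes, which respond within minutes to activity and stress, were mostly lower or did not pass. Of 27 tested, 11 fell (40.7%) and 2 rose (7.41%), against 8.97% and 9.33% of all genes. In the fit of all 12 libraries 5 fell. Without PBS library 1 or without uninjured library 2, 7 fell. Nr4a3, a nuclear receptor gene induced by exercise, fell from 13.7, 23.8, 11 and 10.1 CPM to 1.40, 0.831, 1.2 and 0.798 CPM (-3.77 ± 0.31, adjusted p = 3.02e-06). Every PBS value was far below every uninjured value, and the rule for the largest falls, which named this gene, asked for no overlap. Atf3, Arc and Myc fell by 2.31 ± 0.32, 1.61 ± 0.25 and 0.97 ± 0.15 on the log2 scale, and Atf3 lost its call in the fit of all 12 libraries (adjusted p = 0.0587). Fos, the best-known member, was at 3.71 to 17.5 CPM in uninjured and 5.44 to 34.0 CPM in PBS muscle and did not pass (adjusted p = 0.591).

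Several other large falls concerned metabolic and poorly described genes. Ppp1r3c encodes PTG, a scaffold that promotes glycogen synthesis. It was at 354, 437, 622 and 512 CPM in uninjured and 75.1, 82.5, 56.5 and 48.5 CPM in PBS libraries, 7.32-fold higher in uninjured muscle (adjusted p = 0.000122). Arrdc2, an arrestin-domain gene, was at 109, 267, 274 and 260 CPM and at 19.5, 21.2, 46.9 and 23.4 CPM, and again uninjured library 1 stood below the other 3 (adjusted p = 0.00551). The largest fall among the named genes was in Odf3l2, named for an outer dense fibre protein of sperm, from 63.2 to 110 CPM to between 0.748 and 5.01 CPM (-5.20 ± 0.57, adjusted p = 0.00167). The pseudogene Hmga2-ps1 fell 19.1-fold and Doc2b, a calcium-sensing exocytosis gene, 10.5-fold, although reads at a pseudogene or an overlapping transcript cannot be assigned with certainty. Gel-injected legs lay at 33.3 to 74.2 CPM for Ppp1r3c and at 0.666 to 2.57 CPM for Odf3l2.

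Among genes with a mean of at least 5 CPM in the higher group, the largest rises were smaller than the largest falls and mostly in genes of lower abundance. Tnf, which lay below that level, rose by 3.78 ± 0.725 on the log2 scale. Tnfaip3 encodes A20, an inhibitor of NF-kappaB signalling, and rose from 1.61, 0.794, 1.28 and 1.14 CPM to 8.09, 5.20, 4.46 and 4.67 CPM (2.21 ± 0.28, adjusted p = 2.82e-05). Frzb, a secreted Wnt antagonist gene, rose from 3.01, 2.95, 2.17 and 3.00 CPM to 15.8, 14.0, 8.71 and 7.07 CPM (2.03 ± 0.25, adjusted p = 3.11e-05). In both genes the lowest PBS library was above the highest uninjured library by more than the spread of the uninjured group. The rule that named the largest rises asked for no overlap between groups. Of 18 NF-kappaB genes tested, Tnfaip3, Birc3 and Tnf rose (16.7%) and Nfkbia, Nfkbiz, Bcl3 and Tnip2 fell (22.2%). All genes gave 9.33% and 8.97%, and with all 12 libraries 2 of the list rose and 2 fell. Nfkbia and Tnip2 fell by 0.59 ± 0.12 and 1.25 ± 0.22 on the log2 scale (adjusted p = 0.00156 and 0.000547). Dusp10, a phosphatase gene for stress kinases, went from 22.3, 14.3, 8.69 and 11.8 CPM to 63.5, 63.8, 49.4 and 46.6 CPM (1.96 ± 0.28, adjusted p = 0.00246). Parm1, Abtb2, Esrrb, Nceh1, Lrrn1, Tnfrsf19, Aif1l, BC048679 and Bche rose between 1.47 and 2.01 on the log2 scale. Of these, Esrrb encodes an estrogen-related nuclear receptor and Bche butyrylcholinesterase, and BC048679 lost its call in the fit of all 12 libraries (adjusted p = 0.0757).

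Genes of pyruvate oxidation and the citrate cycle rose together. Of 35 tested, 20 rose (57.1%) and 0 fell, against 9.33% and 8.97% of all genes, with a median log2 fold change of 0.35. Without single libraries 15 to 21 rose. Got1, the cytosolic aspartate aminotransferase of the malate-aspartate shuttle, went from 292, 310, 294 and 311 CPM to 465, 598, 606 and 463 CPM (0.82 ± 0.10, adjusted p = 2.21e-05). Pdp1, the phosphatase that activates pyruvate dehydrogenase, went from 38.2, 38.9, 51.1 and 50.9 CPM to 81.1, 82.8, 78.7 and 70.7 CPM (0.81 ± 0.11, adjusted p = 5.37e-05). Neither gene had an overlap between groups. Pdk1 and Pdk2, kinases that inhibit pyruvate dehydrogenase, rose as well, by 0.53 ± 0.12 and 0.41 ± 0.09 (adjusted p = 0.00366 and 0.00286). Dlat and Dlst, the acyltransferase subunits of the pyruvate and oxoglutarate dehydrogenases, rose by 0.60 ± 0.10 and 0.56 ± 0.09 (adjusted p = 0.000262 and 0.000259). Citrate synthase, Cs, rose by 0.36 ± 0.09 (adjusted p = 0.00578). The list level was 0.298, 0.35 and 0.339 in PBS libraries 1 to 3 and 0.0433 in PBS library 4, close to the highest uninjured library at 0.0400. With all 12 libraries in the fit 6 members rose.

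Of 46 fatty acid genes 18 were higher (39.1%) and 6 lower (13%), against 9.33% and 8.97% of all genes. The count of lower genes is too small to set the list apart from all genes in that direction. In the fit of all 12 libraries 5 were higher and 2 lower. Enzymes of uptake and beta-oxidation were among those that rose. Acsl1, which activates long-chain fatty acids, went from 234, 218, 225 and 223 CPM to 407, 418, 476 and 329 CPM (0.86 ± 0.10, adjusted p = 1.48e-05). Ppargc1b, a coactivator of mitochondrial genes, went from 14.8, 17.6, 14.7 and 17.4 CPM to 37.3, 39.0, 47.7 and 35.6 CPM (1.31 ± 0.12, adjusted p = 7.32e-07). The 6 that fell were Fabp4, Lipe, Plin4, Ucp3, Ucp2 and Angptl4. Plin4, a lipid-droplet coat gene, went from 459, 766, 841 and 898 CPM to 193, 203, 213 and 179 CPM (-1.91 ± 0.19, adjusted p = 9.97e-05). Ucp3 fell by 1.63 ± 0.19 and Ucp2 by 1.02 ± 0.15, both uncoupling protein genes, and Ucp2 lost its call with all 12 libraries (adjusted p = 0.213).

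Glycolysis and glycogen genes had 9 members higher (23.1%) and 5 lower (12.8%) of 39, against 9.33% and 8.97% of all genes. Without uninjured library 2, 3 were lower. In the fit of all 12 libraries 3 were higher and 2 lower. Pfkfb4, which makes an activator of glycolysis, fell from between 85.9 and 96.5 CPM to between 44.1 and 54.0 CPM (-0.85 ± 0.09, adjusted p = 5.81e-06). Pgk1, a glycolytic kinase gene, and Gbe1, the glycogen branching enzyme, rose by 0.65 ± 0.09 and 0.71 ± 0.11, and Pgk1 lost its call with all 12 libraries (adjusted p = 0.0556). Srebf1, a transcription factor of lipid synthesis, rose from between 21.7 and 29.7 CPM to between 42.9 and 56.0 CPM (0.99 ± 0.12, adjusted p = 1.76e-05). Of 21 lipid synthesis genes tested 4 rose (19%) and 1, Thrsp, fell (4.76%), with a median of -0.145. In the fit of all 12 libraries 2 rose and 0 fell. Thrsp fell by 0.72 ± 0.15 (adjusted p = 0.00203, and 0.108 with all 12 libraries). Of 35 genes on the insulin, IGF and mTOR list 7 rose (20%) and 6 fell (17.1%), against 9.33% and 8.97% of all genes. Without uninjured library 2 or 3, 3 fell, and 3 were called in each direction with all 12 libraries. The amino acid transporter gene Slc38a2 fell from 121, 151, 136 and 118 CPM to 46.4, 56.6, 45.7 and 54.0 CPM (-1.38 ± 0.10, adjusted p = 7.66e-08). The translational repressor gene Eif4ebp1 fell by 0.69 ± 0.10. The mTOR inhibitor gene Deptor rose by 0.80 ± 0.10, a call lost with all 12 libraries (adjusted p = 0.077).

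**Figure D3:**
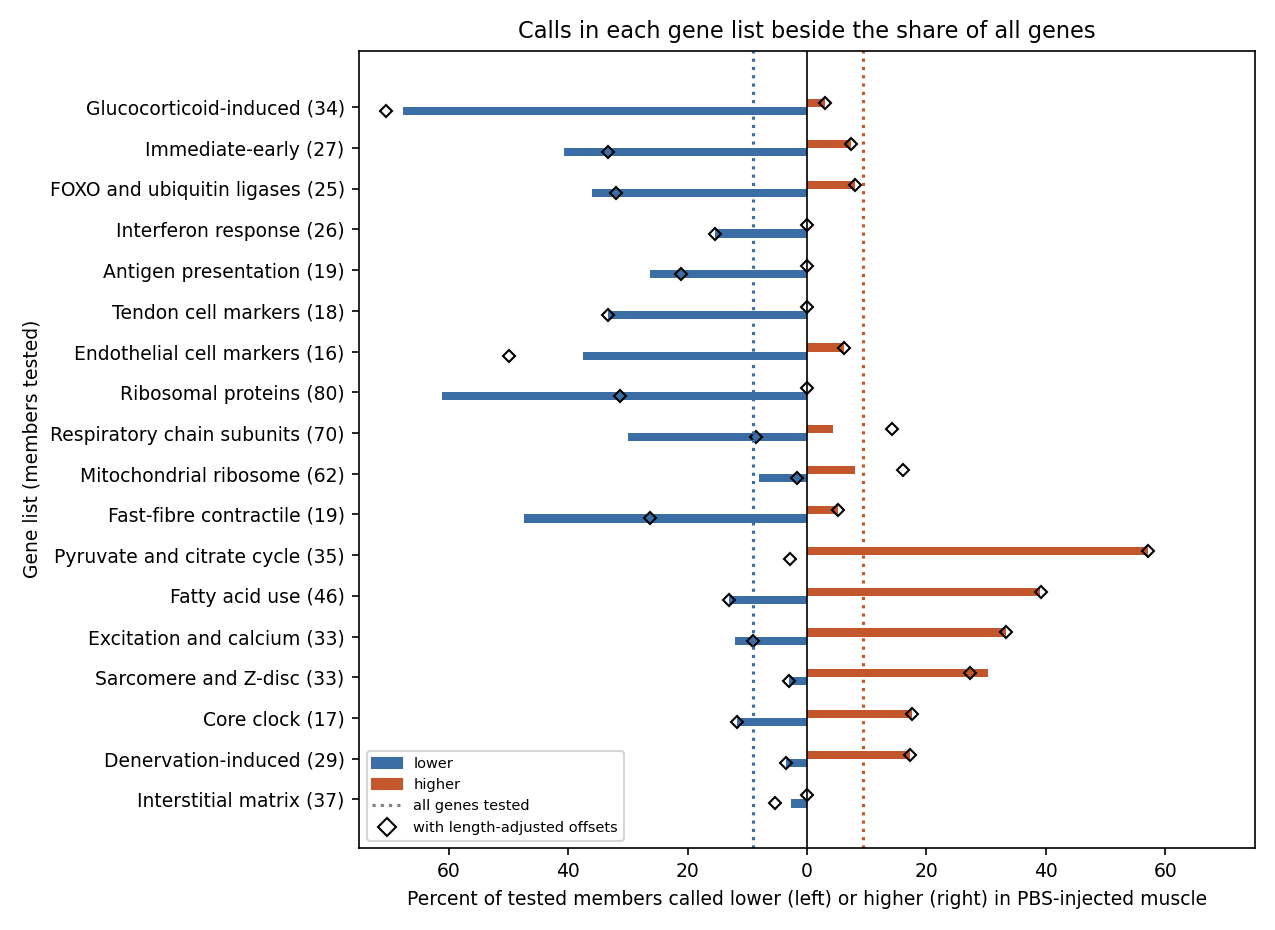
Percent of tested members called lower (blue, left) or higher (orange, right) in PBS-injected muscle for 18 gene lists, with the number tested in brackets, dotted lines for all genes tested (8.97% lower, 9.33% higher) and open diamonds for the same shares with length-adjusted offsets. Glucocorticoid-induced and ribosomal protein genes reach furthest to the left and citrate cycle genes furthest to the right, and the diamonds depart most from the bars for ribosomal proteins, respiratory chain subunits and fast-fibre genes.

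Short genes were lower in PBS-injected muscle as a class, which bears on the lists of short genes that follow. When the tested genes were split by exonic length into 10 equal classes, in the shortest class (62 to 1313 bases, GENCODE M21) 18.5% fell and 1.92% rose, and their median log2 fold change was -0.16. From class 4 upward between 7.11% and 8.95% fell and between 9.40% and 12.9% rose. The median deviation of the shortest class was -0.27 and -0.26 in PBS libraries 1 and 2, -0.0632 and -0.0704 in PBS libraries 3 and 4, and between -0.00973 and 0.0183 in uninjured libraries. Rn45s, the ribosomal RNA precursor, had no matched length. It was at 73.2 to 102 CPM in uninjured and 17.3 to 34.5 CPM in PBS libraries (-1.81 ± 0.21, adjusted p = 0.000455). Of 10 nuclear and small non-coding RNA genes 5 fell (50%, against 8.97% of all genes), Malat1 among them (-0.85 ± 0.14, adjusted p = 0.000744). Their median exonic length was 3960.5 bases, against 3315 bases over all genes tested, so this is not a list of short genes. Malat1 has 6983 bases and was at -0.88 with length-adjusted offsets. The submitters' labels do not state how RNA was selected, and the part of RNA quality or library preparation was not tested. With offsets adjusted for length, 1183 genes rose (9.26%) and 1114 fell (8.72%), and 2057 of the 2339 calls remained.

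**Figure D4:**
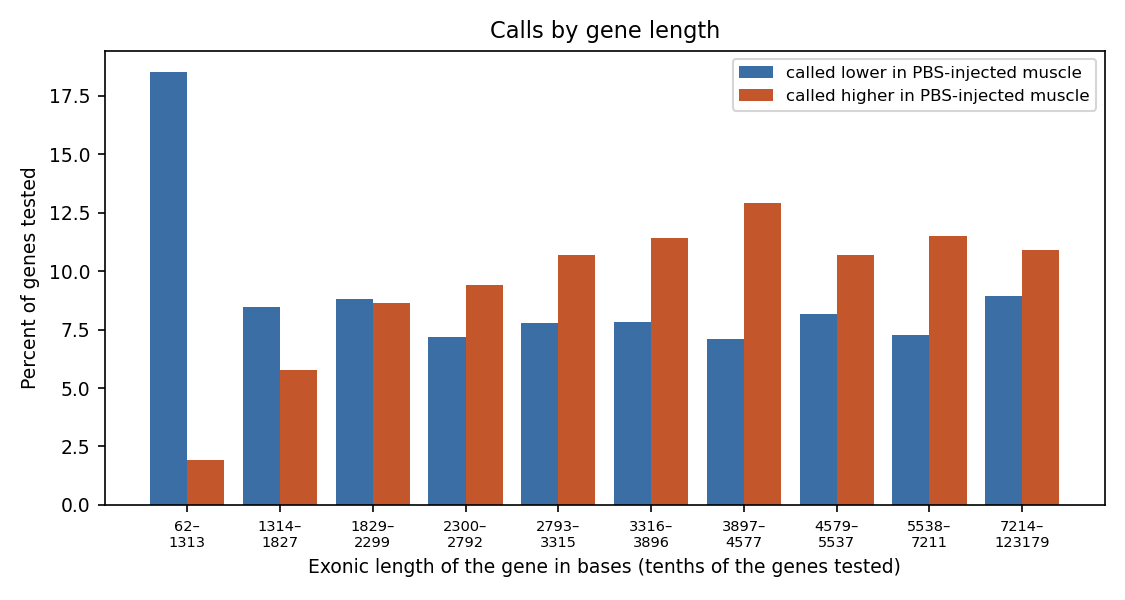
Percent of genes called lower (blue) or higher (orange) in PBS-injected muscle in each of 10 equal classes of the genes tested by exonic length in bases. In the shortest class 18.5% are lower and 1.92% higher, and from class 4 upward the higher share exceeds the lower share.

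Ribosomal protein genes, with a median exonic length of 993 bases, showed 49 of 80 lower (61.2%) and 0 higher, against 8.97% and 9.33% of all genes. Their median log2 fold change was -0.345. With length-adjusted offsets 25 were lower and 0 higher, with a median of -0.171, and in the fit of all 12 libraries 15 were lower. The list level was -0.518 and -0.453 in PBS libraries 1 and 2, -0.159 and -0.211 in PBS libraries 3 and 4, and -0.0452 to 0.0597 in uninjured libraries. The PBS libraries had the same order as for the shortest class of genes. The median length of this list lies within that class, so the likeness is partly built in. How much of the fall goes with length was not tested. Rpl31, a protein of the large subunit, went from 271, 290, 267 and 278 CPM to 172, 183, 208 and 177 CPM (-0.58 ± 0.09, adjusted p = 0.000165). It passed with length-adjusted offsets as well (adjusted p = 0.000216). Reads of ribosomal protein genes can also match processed pseudogenes.

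Nuclear-encoded respiratory chain subunits gave a result that turned with the length adjustment. Of 70 tested, 21 fell (30%) and 3 rose (4.29%), against 8.97% and 9.33% of all genes, with a median of -0.16. Without PBS library 3, 32 fell. In the fit of all 12 libraries 5 fell and 0 rose, and 5 rose without PBS library 4 and 1 without uninjured library 2 or 4. With length-adjusted offsets 6 fell and 10 rose, with a median of 0.00815. Their median exonic length was 971 bases. Cox8b, a small subunit of cytochrome oxidase, was at 836 to 951 CPM in uninjured and 466 to 704 CPM in PBS muscle (-0.58 ± 0.11, adjusted p = 0.0014, 0.103 with length-adjusted offsets and 0.0663 with all 12 libraries). Atp5a1, the alpha subunit of the ATP synthase, rose from between 1390 and 1460 CPM to between 1690 and 2160 CPM (0.45 ± 0.09, adjusted p = 0.00182). Mitochondrial ribosomal proteins had 5 higher and 5 lower of 62, 8.06% each way and near the 9.33% and 8.97% of all genes. With length-adjusted offsets 10 were higher and 1 lower. Without PBS library 1, 8 were higher, without uninjured library 4, 3 were higher, and without uninjured library 3, 2 were lower. With all 12 libraries 1 was higher and 1 lower. The glucocorticoid and citrate cycle lists did not depend on it in this way, with 24 lower and 1 higher, and 1 lower and 20 higher, under the same offsets.

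**Figure D5:**
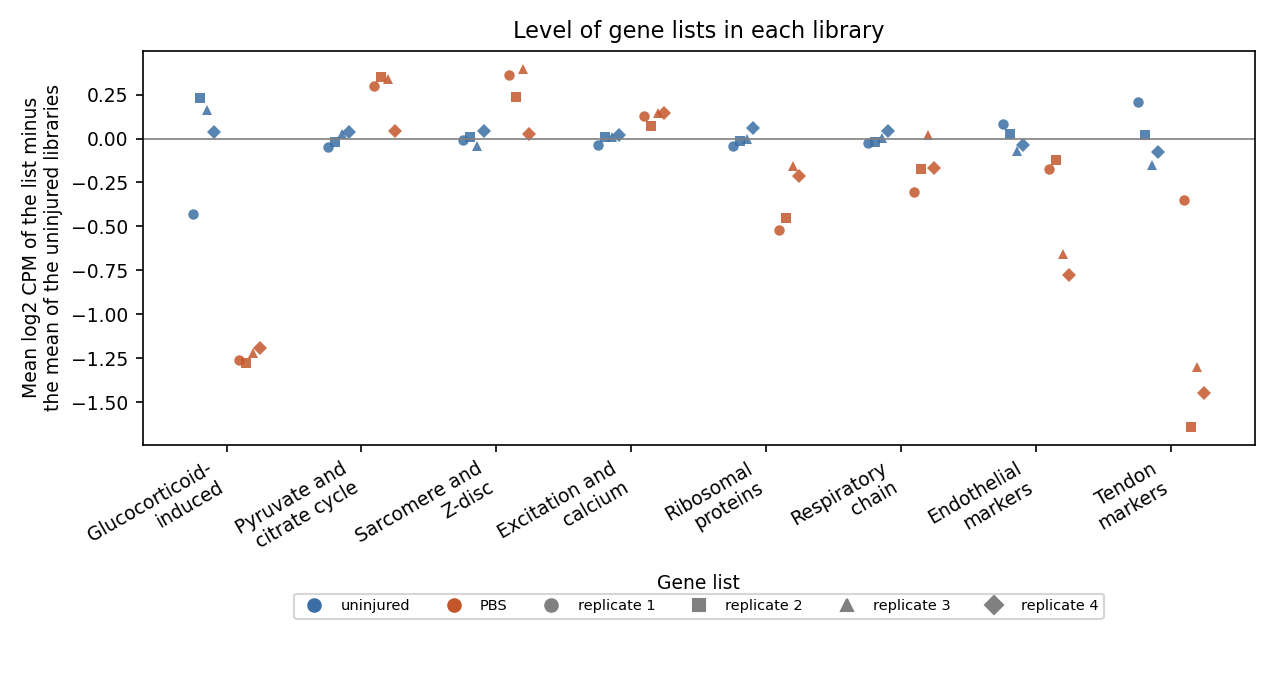
Level of 8 gene lists in each library, as the average log2 CPM of its members relative to the uninjured average, with blue symbols for uninjured and orange for PBS libraries and shapes for the replicate number. All PBS libraries are below all uninjured libraries for glucocorticoid-induced genes, ribosomal proteins, endothelial markers and tendon markers, with PBS libraries 1 and 2 lowest for ribosomal proteins and libraries 3 and 4 lowest for endothelial markers, and PBS library 4 is next to the uninjured libraries for the citrate cycle and for sarcomere genes.

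Contractile genes of fast fibres had 9 of 19 members lower (47.4%) and 1 higher (5.26%), against 8.97% and 9.33% of all genes. The counts were 5 and 1 with length-adjusted offsets and 4 and 0 with all 12 libraries. Tpm1, a thin-filament tropomyosin gene, went from between 26400 and 27500 CPM to between 17900 and 20900 CPM (-0.48 ± 0.09, adjusted p = 0.000702). Mylpf, a regulatory light chain gene, fell by 0.45 ± 0.09 and lost its call with length-adjusted offsets (adjusted p = 0.139). Of the myosin heavy chains, Myh4, the type 2B chain, was at 33500 to 43900 CPM and 28600 to 35800 CPM (-0.17 ± 0.10, adjusted p = 0.251). Myh1, the type 2X chain, was at 5770 to 7240 CPM and 7010 to 13300 CPM (0.61 ± 0.16, adjusted p = 0.0243), and its call was lost in 4 of the 8 fits without 1 library and with all 12 libraries. Myh2, the type 2A chain, was at 278 to 485 CPM in uninjured and at 568, 1540, 1500 and 432 CPM in PBS libraries (adjusted p = 0.101), high in PBS libraries 2 and 3.

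Genes of the sarcomere and Z-disc rose more often than they fell, at 10 (30.3%) and 1 (3.03%) of 33. So did genes of excitation and calcium handling, at 11 (33.3%) and 4 (12.1%) of 33. All genes gave 9.33% and 8.97%. In the fit of all 12 libraries 3 sarcomere genes and 1 calcium-handling gene rose. Of the calcium-handling genes 6 or 7 rose without PBS library 1 or 2 or uninjured library 2, 3 or 4. Bag3, a co-chaperone that clears damaged Z-disc proteins, went from 127, 127, 118 and 108 CPM to 241, 267, 283 and 195 CPM (1.04 ± 0.11, adjusted p = 3.58e-06). Hspd1, a mitochondrial chaperone gene, rose by 0.67 ± 0.10, while the heat-inducible Hspa1a and Hspa1b were at 0.575 to 3.37 CPM in both groups and did not pass (adjusted p = 0.211 for both). Atp1b1, a sodium pump subunit gene, went from 100, 98.9, 98.6 and 116 CPM to 170, 271, 304 and 187 CPM (1.17 ± 0.18, adjusted p = 0.00134). Casq2, the calsequestrin of slow and cardiac muscle, went from 16.2, 23.4, 24.1 and 26.8 CPM to 57.9, 64.0, 43.6 and 39.6 CPM (1.18 ± 0.18, adjusted p = 0.000908). Of the other slow-fibre genes none passed except Mybpc1, which overlapped between groups (adjusted p = 0.0365) and lost its call in 6 of the 8 fits without 1 library, with all 12 libraries and with length-adjusted offsets.

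Of 23 genes of the nerve-muscle contact 3 rose and 3 fell, 13% each way, against 9.33% and 8.97% of all genes. These counts are too small to set the list apart from all genes. Without PBS library 3, 6 rose, and with all 12 libraries 2 were called in each direction. Of 29 genes known to rise after denervation, 5 (17.2%, against 9.33% of all genes) rose (Hdac9, Dach2, Kcnn3, Sh3kbp1 and Scn4a) and Trim63 fell, with a median of 0.34, and 8 rose without PBS library 3. Scn4a lost its call in the fit of all 12 libraries. Dach2, a repressor in that response, went from 0.483, 1.13, 1.15 and 0.3 CPM to 3.98, 3.95, 4.36 and 1.48 CPM (2.17 ± 0.42, adjusted p = 0.00167). The classical markers Myog and Chrng were highest in PBS library 4, and the groups overlapped. Myog was at 6.55, 5.82, 5.12 and 17.8 CPM in PBS libraries and 2.43 to 5.26 CPM in uninjured libraries (adjusted p = 0.0837), and Chrng, the fetal acetylcholine receptor subunit, at 0.935, 0.520, 0.762 and 5.59 CPM against 0 to 0.794 CPM (adjusted p = 0.177). Dok7, an activator of the synaptic kinase MuSK, fell from 48.5, 53.6, 56.4 and 50.7 CPM to 26.1, 25.1, 26.9 and 26.7 CPM (-1.0 ± 0.10, adjusted p = 1.34e-06). Lrp4, the agrin receptor gene, rose by 0.90 ± 0.18 (adjusted p = 0.0018).

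Some genes of growth and proliferation rose, while the regeneration markers Pax7 and Myh3 did not pass. Of 24 satellite cell and myogenic genes, Mef2d and Mymk rose (8.33%) and Sdc4, Chodl, Hey1 and Myc fell (16.7%). All genes gave 9.33% and 8.97%. With all 12 libraries 1 of the list rose and 2 fell, and 0 to 4 rose without single libraries. Of 19 genes of developing fibres 2, H19 and Igdcc4, rose (10.5%) and 0 fell, and 1 to 4 rose without single libraries. Pax7, the satellite cell factor, was at 0.681 to 2.58 CPM and 2.40 to 3.99 CPM (0.92 ± 0.34, adjusted p = 0.071), and Myh3, the embryonic myosin, at 4.19 to 8.74 CPM and 4.94 to 12.5 CPM (0.58 ± 0.30, adjusted p = 0.216). H19, an imprinted RNA of developing muscle, rose from 988, 930, 821 and 1180 CPM to 1870, 1390, 1480 and 2180 CPM (0.82 ± 0.15, adjusted p = 0.00186). Of 25 proliferation genes 5 rose (20%, against 9.33% of all genes) and 0 fell. With all 12 libraries, and without uninjured library 1, 2 or 3, 3 rose. Ccnd1 rose from between 2.17 and 3.17 CPM to between 4.68 and 9.82 CPM (adjusted p = 0.00134). Mki67 was between 0.218 and 2.51 CPM in both groups (adjusted p = 0.782). Axin2, a transcriptional target of Wnt signalling, rose from 6.12, 4.08, 4.79 and 3.36 CPM to 9.92, 10.8, 10.9 and 10.4 CPM (1.19 ± 0.18, adjusted p = 0.000211), and Wnt5a, a ligand gene, by 1.26 ± 0.25 (adjusted p = 0.00182). Acvr2b, a receptor for myostatin and activins, rose by 0.91 ± 0.13 (adjusted p = 5.94e-05), and myostatin itself, Mstn, was at 14.2 to 16.9 CPM and 10.6 to 13.6 CPM (-0.33 ± 0.13, adjusted p = 0.0853).

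Of the macrophage, interferon-response and antigen presentation genes tested 0 rose, against 9.33% of all genes. Of 19 macrophage markers 0 rose and 1, Lyve1, fell, a call that held in 7 of the 8 fits without 1 library and was lost with all 12 libraries (adjusted p = 0.0703). The summed level of that list was 50.5 to 99.0 CPM in uninjured and 37.6 to 81.0 CPM in PBS libraries. Of the granulocyte and lymphocyte markers only 3 and 2 were abundant enough to test, and 0 passed, while Ly6g had 0 counts in all 8 libraries. Of 26 interferon-response genes 4 fell (15.4%), and of 19 antigen presentation genes 5 fell (26.3%), against 8.97% of all genes. Without uninjured library 1, 3 antigen presentation genes fell. All 9 of these calls were lost in the fit of all 12 libraries. H2-D1, a class I gene, was at 47.0 to 59.0 CPM and 27.8 to 38.3 CPM (-0.73 ± 0.11, adjusted p = 0.000222, and 0.265 with all 12 libraries), with reads that may be shared among near-identical class I genes. Tnf had 4 counts over the uninjured and 68 over the PBS libraries and rose (adjusted p = 0.00128), at no more than 1.03 CPM in any library. Of 18 cytokine and acute-phase genes 3 rose (16.7%) and 7 fell (38.9%), against 9.33% and 8.97% of all genes. Without PBS library 3, 4 fell, and with all 12 libraries 2 rose and 4 fell. Il15, a cytokine gene that muscle expresses, rose from 3.22, 3.18, 3.58 and 4.32 CPM to 8.47, 9.56, 9.26 and 7.41 CPM (1.28 ± 0.18, adjusted p = 9.6e-05). Osmr, the oncostatin M receptor gene, and the acute-phase gene Serpina3n fell by 1.45 ± 0.16 and 2.87 ± 0.36 (adjusted p = 1.22e-05 and 2.25e-05).

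Some markers of vessels fell in PBS-injected muscle and others did not pass, and in such bulk samples fewer cells of a type and less RNA per cell cannot be told apart. Of 16 endothelial markers 6 fell (37.5%) and 1, Kdr, rose (6.25%), against 8.97% and 9.33% of all genes. The junction and receptor genes Cdh5, Pecam1, Emcn and Tek had log2 fold changes of 0.04, -0.20, 0.09 and 0.03, and none passed (adjusted p between 0.338 and 0.928). Of 14 markers of mural cells, which wrap vessels, 1 rose and 1 fell (7.14% each way, near the shares of all genes). Their median was -0.172, and both calls were lost in the fit of all 12 libraries. Ly6c1, a surface marker of capillary endothelium, went from 253, 242, 281 and 264 CPM to 96.4, 87.9, 99.1 and 83.5 CPM (-1.50 ± 0.09, adjusted p = 5.79e-09). Esam, Aqp1 and Egfl7 fell between 0.49 and 0.84 on the log2 scale, each with a call lost in the fit of all 12 libraries, where 2 endothelial markers fell, while 10 fell without PBS library 2. The summed level of the list was 1520 to 1600 CPM in uninjured and 858 to 1300 CPM in PBS libraries, and its level was lowest in PBS libraries 3 and 4. Kdr, the VEGF receptor gene, did not overlap between groups, at 12.5 to 26.6 CPM and 33.2 to 77.2 CPM, but its call (adjusted p = 0.0434) held in 2 of the 8 fits without 1 library. Of 15 markers of fibro-adipogenic progenitors 2 fell (13.3%, against 8.97% of all genes) and 0 rose. The counts were 6 and 0 without PBS library 1, and 1 fell in the fit of all 12 libraries. Estimates for Lum, Col15a1, Smoc2 and Cd34 were above 0, between 0.15 and 0.63, and did not pass. Ly6a, a marker of these cells that endothelium also expresses, fell from between 79.0 and 96.5 CPM to between 29.8 and 35.8 CPM (-1.38 ± 0.10, adjusted p = 4.58e-08).

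Tendon markers were lower in 6 of 18 cases (33.3%, against 8.97% of all genes) and higher in 0, with a median of -0.83. Without PBS library 1, 10 fell, and without uninjured library 2, 3 fell. In the fit of all 12 libraries 5 were lower. Cilp, a cartilage and tendon matrix gene, was at 13.3 to 25.1 CPM in uninjured and at 112, 11.3, 26.2 and 14 CPM in PBS libraries, high in PBS library 1 (adjusted p = 0.4). The list level was -1.64 to -1.30 in PBS libraries 2 to 4, -0.347 in PBS library 1 and -0.152 to 0.209 in uninjured libraries. Angptl7, a secreted protein gene of tendon, was at 3.76, 4.31, 5.24 and 4.56 CPM in uninjured and 0.374, 1.2, 0.871 and 0.684 CPM in PBS libraries (-2.51 ± 0.32, adjusted p = 2.82e-05). How much tendon each dissected muscle carried is not given, and its part in these values was not tested. Schwann cell markers had 0 of 15 called, and their level in PBS libraries ranged from -1.28 to 0.509, wider than the -0.236 to 0.365 of uninjured libraries.

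Of 37 interstitial matrix genes 1, Eln, fell (2.7%, against 8.97% of all genes) and 0 rose, while 24 estimates were below 0 and 13 above. The PBS libraries differed among themselves. The list level was 0.504 in PBS library 1 and -0.284, -0.582 and -0.611 in PBS libraries 2 to 4. In uninjured libraries it was -0.195 to 0.239. Eln, which encodes elastin, went from 54.4, 70.7, 70.3 and 60.0 CPM to 27.9, 32.3, 25.0 and 25.8 CPM (-1.20 ± 0.11, adjusted p = 1.15e-06). Without PBS library 1, 9 members fell. Col1a1, the main fibrillar collagen gene, was at 311, 215, 159 and 233 CPM and at 427, 175, 190 and 204 CPM, with only PBS library 1 outside the uninjured range (adjusted p = 0.863). Timp4 and Timp3, inhibitors of matrix proteases, fell: Timp4 went from 60.6, 61.3, 61.5 and 60.1 CPM to 17.4, 29.8, 20.9 and 21.3 CPM (-1.45 ± 0.13, adjusted p = 1.2e-06), and Timp3 fell by 0.96 ± 0.11 (adjusted p = 8.29e-06). Ccn2, a matricellular target of TGF-beta, went from 9.56, 10.7, 11.2 and 11.4 CPM to 3.23, 3.17, 4.85 and 2.45 CPM (-1.64 ± 0.20, adjusted p = 1.74e-05). In the gel-injected legs Timp4 was at 6.18 to 22.6 CPM.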

How the data were processed

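RNA of mouse tibialis anterior was sequenced, and the deposited values are raw counts per gene symbol, made by the authors after alignment with STAR (build mm39). STAR, mm39 and edgeR come from the submitters' processing notes. Sources used here do not give the counting program, strand setting or annotation. All 8 libraries held 26264 genes. Counts of the 8 libraries were fitted with edgeR 4.0.16 in R 4.3.3 (filterByExpr, TMM scaling, robust quasi-likelihood F test, group only, 6 residual degrees of freedom), with Benjamini-Hochberg adjustment over the 12780 genes tested and a threshold of 0.05. Errors of log2 fold changes are standard errors, and a prior count of 2 entered log2 CPM. The script was tested on simulated data. Replicates differed by more than sampling noise (chi-square per gene at least 6.5), and p-values measure the spread between libraries taken as animals.

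The members and gene lists were chosen with earlier results of these data known. Lists are described by counts and medians, with no set test. Named genes were the 12 largest rises and 12 largest falls that passed in every fit without 1 library with a mean of at least 5 CPM in the higher group and no overlap, up to 4 called members of each list by smallest p (first those that passed in every such fit), the 10 most abundant calls, and genes fixed by name. Predicted or unnamed loci were left out of the largest changes and of the most abundant calls. Nr3c1, Foxo1, Glul, Sgk1, Klf9, Dusp1, Clock, Cry1, Per3, Nr1d2, Cs, Atp5a1, Pdk1, Pdk2, Hdac9, Kdr, Cdh5, Pecam1, Emcn, Tek, Lum, Col15a1, Smoc2, Cd34, Cilp, Mt3 and Ly6g were chosen after their values were seen. Alternatives were other scalings, filters and tests (DESeq2 1.42.0, limma 3.58.1), all 12 libraries, a replicate block, leaving out each library, and, chosen after seeing the data, offsets adjusted for gene length or GC content. Exonic lengths (GENCODE M21) matched 97.9% of the genes tested by symbol.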

Additional observations from a re-analysis of the deposited data

Results flagged for a closer look

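In 20 of 416 groups of 4 values of the named genes, 1 library lay far from the other 3 by Dixon's criterion, about the 1 in 20 that chance gives. Uninjured library 1 was low for Arrdc2 (109 CPM, the others 260 to 274 CPM) and Depp1 (15.4 CPM, the others 28.8 to 30.3 CPM), and high for Igdcc4 (26.5 CPM) and Kcnj2 (44.8 CPM). Uninjured library 3 was high for Odf3l2 (110 CPM) and low for Frzb (2.17 CPM) and Lrrn1 (3.07 CPM). Uninjured library 4 was high for Atp1b1 (116 CPM) and for the slow myosin Myh7 (38.7 CPM, the others 0.644 to 3.29 CPM). PBS library 1 was high for Col1a1 (427 CPM) and PBS library 2 for Lrp4 (16.1 CPM). PBS library 3 was high for Arrdc2 (46.9 CPM), Ddit4 (5.34 CPM), Fkbp5 (16.6 CPM), Cryab (1360 CPM) and Cat (203 CPM). PBS library 4 was high for Myog (17.8 CPM, the others 5.12 to 6.55 CPM) and Chrng (5.59 CPM, the others 0.52 to 0.935 CPM), and low for Myh4 (28600 CPM) and Dach2 (1.48 CPM).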

How the results depend on the processing

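The count of 2339 genes called stayed between 2292 and 2632 with other scalings, filters, tests and length or GC offsets. In the fit of all 12 libraries 833 genes were called, 376 higher and 457 lower, and the cause was not tested. Without single libraries 1600 to 2615 genes were called, 795 to 1345 higher, 781 to 1270 lower and 339 to 463 at least 2-fold. Of 190 named genes past the threshold, 73 lost their call with all 12 libraries, 25 in at least 1 fit without 1 library, 11 with length-adjusted offsets and 3 with GC-adjusted offsets. Signs turned only in genes that were not called. Without single libraries the log2 fold change ranged from -0.055 (without PBS library 1) to 0.32 for Arntl, from -0.087 (without PBS library 2) to 1.31 for Fos, from -0.27 (without PBS library 1) to 0.30 for Col1a1, from -0.57 (without PBS library 1) to 0.64 for Adgre1, from -0.046 (without PBS library 4) to 0.63 for Mki67, and from -2.33 to 1.54 (without uninjured library 4) for Myh7, which was at 0.11 with the replicate block. With the replicate number as a block 2539 genes were called. The numbers are of different animals, and deviations of same-numbered libraries correlated at 0.0966, 0.0357, 0.105 and 0.0132, so the numbers were not taken as pairs, although 7 of 8 libraries correlated best with their own number. Genes of few counts, such as Adgre1 and Mki67, are limited by depth.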
